A study of Homo sapiens with 6 samples.

Results

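RNA crosslinked to GAPDH was compared between MOLM-13 cells kept in low glucose and the same cells kept in normal glucose. The comparison took every deposited peak of both conditions, 484 from low glucose and 495 from normal glucose, which together are 979 of the 1316 peaks of the series. A peak was a distinct stretch of the genome, and peaks of the lists were called shared when they overlapped by at least 1 nt. MOLM-13 is an established human line of acute myeloid leukaemia (AML), and the labels name no genetic change and no difference between the groups other than the glucose of the medium. Each condition had 2 samples, 4 in all, and the authors had joined both samples of a condition into 1 list. The lists hold positions and gene names, without read counts, scores or strands, so that the depth is unknown, the spread between replicates cannot be given and no test of the conditions is possible. The 95% intervals given below are exact binomial (Clopper-Pearson) intervals over peaks or genes and cover counting error only. Low glucose stood for a condition in which less sugar feeds glycolysis, and the comparison asks whether GAPDH met the same transcripts, and the same places of them, in both media. Of the genes looked up to check the labelled cell type (SPI1, CEBPA, CD33, MPO, ELANE, FLT3, KMT2A, MEIS1, HOXA9, CD34 and KIT), only CEBPA had a peak, and none of the markers of other cell types had one. A peak marks contact with a protein and not the abundance of an RNA, so a gene without a peak may still have been expressed.

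GAPDH is the enzyme of glycolysis that oxidises glyceraldehyde 3-phosphate and reduces NAD+. It also binds RNA, and its nucleotide-binding Rossmann fold has been linked to this contact. Earlier work described GAPDH on tRNAs and on AU-rich parts of messenger RNAs. In CLIP, ultraviolet light fixes the protein to the RNA it touches, the complex is pulled down with an antibody, and the RNA is trimmed. Here the trimming enzyme was RNase T1, which cuts after G. A peak of the shortest width in the lists was a lone crosslink site extended on each side, called a single-site peak here, and its middle base was read as that site. A wider peak held several sites in a row.

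Sequences around the sites are shown because the base next to the site differed between the lists. They are given 5′ to 3′ on the strand of the gene, in hg38, with the base before the middle of the peak in capitals. Each is 30 bases long. These, from single-site peaks in coding exons, came from the normal glucose list alone:
YBX1 (chr1:42696225-42696254, plus strand): gaagtaccttcgcaGtgtaggagatggaga
YBX1 (chr1:42696762-42696791, plus strand): cagcaaaattaccaGaatagtgagagtggg
YBX1 (chr1:42700784-42700813, plus strand): ccctcctcgccaaaGacagcctagagagga
RPS14 (chr5:150445624-150445653, minus strand): ccctcagagcccttGcccgctcgggtatga
RPS14 (chr5:150447658-150447687, minus strand): gcctcggacctcagGtggctgaaggagaga
GPI (chr19:34399219-34399248, plus strand): aacttcttggcccaGacagaggccctgatg
ALDOA (chr16:30067471-30067500, plus strand): agtccattggcaccGagaacaccgaggaga
ALDOA (chr16:30068942-30068971, plus strand): caatgttctggcccGttatgccagtatctg
EEF2 (chr19:3976621-3976650, minus strand): cagcagccgccccaGccaggtggtggcgga
EEF2 (chr19:3978145-3978174, minus strand): agaaatctgacccgGtcgtctcgtaccgcg

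These came from the low glucose list alone, in coding exons as before:
RPS12 (chr6:132814976-132815005, plus strand): gctgctggaggtgtAatggacgttaatact
RPS12 (chr6:132816476-132816505, plus strand): ttgtgtgcttgcatCcaactgtgatgagcc
RPS16 (chr19:39433313-39433342, minus strand): tcgtcgctgcgagtCcaaaaagtttggagg
RPS16 (chr19:39433661-39433690, minus strand): tggtggtcacgtggCccagatttatggtga
EEF2 (chr19:3977961-3977990, minus strand): gcgctacctggccgAgaagtacgagtggga
GDF15 (chr19:18388612-18388641, plus strand): cactgtccgctcggGcccgggcgttgctgc
GDF15 (chr19:18388736-18388765, plus strand): cgtgcccgagccagTtccgggcggcaaaca
LAPTM5 (chr1:30757667-30757696, minus strand): tccgcatcgcaaccAccgccctggccatct

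A few sites were the same in both lists and are shown for contrast. RNU11 is the U11 RNA of the minor spliceosome, RN7SK encodes the RNA that keeps P-TEFb inactive, and the RPL28 place lies in the 5'UTR of a ribosomal protein gene:
RPL28 (chr19:55385915-55385944, plus strand): cctcgcccctcgccTtcctctttccgtctc
RNU11 (chr1:28648702-28648731, plus strand): ggcagctggtgatcGttggtcccggcgccc
RN7SK (chr6:52995603-52995632, plus strand): cgccgcttgggtacCtcggatgtgagggcg

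Most places were found in just 1 of the media, and those in both lay mainly on genes of small structural RNAs. When overlapping peaks were merged, 844 regions resulted, of which 135 (16.0%) held a peak of each list, 349 (41.4%) a low glucose peak only and 360 (42.7%) a normal glucose peak only. The shared regions paired peaks singly, so that 135 of the 484 low glucose peaks (27.9%, interval 23.9 to 32.1%) and 135 of the 495 normal glucose peaks (27.3%, interval 23.4 to 31.4%) had a partner. Of the 135 pairs, 77 (57.0%) had identical ends and in 99 (73.3%) the middles lay within 10 nt of each other, while 7 overlapped by less than 50 nt. Widths were equal in 88 pairs, greater in normal glucose in 23 and greater in low glucose in 24.

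Near misses were few. Of the 349 low glucose peaks without a partner, 13 lay within 50 nt of a normal glucose peak and 58 within 1000 nt. Of the 360 normal glucose peaks without a partner, 18 lay within 50 nt of a low glucose peak and 65 within 1000 nt. The same sequence at another place of the genome was also rare in the other list, since 2 unpaired low glucose peaks and 6 unpaired normal glucose peaks had more than 50% of their 30-mers in its peaks.

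By the kind of gene, tRNA genes took 44 of the 135 shared regions (32.6%), 24 of the 349 in low glucose only (6.88%) and 13 of the 360 in normal glucose only (3.61%). Exons of protein coding genes took 15 shared regions (11.1%), 176 in low glucose only (50.4%) and 143 in normal glucose only (39.7%). Introns of protein coding genes held 12 shared regions, 70 in low glucose only and 51 in normal glucose only. Small nuclear RNAs, which here are those of the spliceosome and RN7SK, held 16, 7 and 16 regions in the same order. Small nucleolar RNAs (snoRNAs) and Cajal body RNAs held 12, 20 and 24. Pseudogenes, with 0 shared regions, 2 in low glucose only and 24 in normal glucose only, were nearly all on the normal glucose side.

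**Figure D1:**
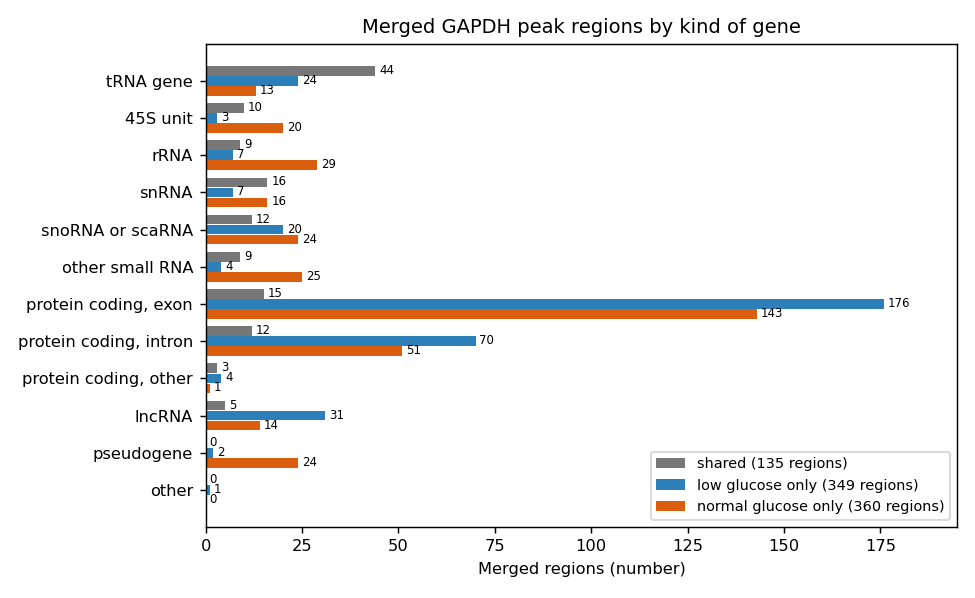
Merged peak regions on each kind of gene, for the 135 regions in both lists, the 349 in low glucose only and the 360 in normal glucose only. In that order, tRNA genes take 44 (32.6%), 24 (6.88%) and 13 (3.61%) regions, and exons of protein coding genes take 15 (11.1%), 176 (50.4%) and 143 (39.7%).

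The peaks over tRNA genes differed in shape as well as in number. tRNAs bring amino acids to the ribosome, and 81 nuclear tRNA genes were met, 44 in both lists, 24 in low glucose only and 13 in normal glucose only. Each peak was extended beyond its outermost sites, so the outermost sites could be set against the ends of the tRNA gene. In the shared regions both outer sites lay within 10 nt of the ends of the tRNA gene in 27 of 44 peaks of the low glucose list and in 30 of 44 of the normal glucose list. Over the tRNA genes met in low glucose only, this held for 0 of 24 peaks, of which 21 reached 1 end and 3 neither. Over those met in normal glucose only it held for 4 of 13, with 5 at 1 end and 4 at neither. The median width was 176 and 177 nt in the shared peaks and 102 nt in each set of unpaired ones.

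The arginine gene TRR-CCT1-1 in an intron of KCTD2 is an example of both ends being met, since its peak (chr17:75033853-75034030) was identical in the lists. The stretch between its outer sites is printed here on the plus strand of the genome with the tRNA gene, from 75033906 to 75033978, in capitals:
TRR-CCT1-1 (chr17:75033903-75033980, plus strand): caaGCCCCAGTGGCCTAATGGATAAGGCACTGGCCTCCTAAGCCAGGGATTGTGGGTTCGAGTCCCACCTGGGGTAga

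TRR-TCG3-1 was a case of unequal width, with 105 nt in low glucose and 179 nt in normal glucose. TRG-GCC2-1 in FCGR2A, an Fc receptor gene of myeloid cells, had the same peak of 177 nt in both. By amino acid, the tRNA genes in both lists served arginine (7), lysine (6), glycine (5), aspartate (4) and valine (4), and fewer served other amino acids. Asparagine had 4 genes in low glucose only and 1 shared, cysteine had 2 in low glucose only, and glycine had 4 in normal glucose only beside 2 in low glucose only. CROCC, a ciliary rootlet gene, carried 3 peaks in low glucose only, over the glycine, glutamate and asparagine genes TRG-CCC1-2, TRE-TTC3-1 and TRN-GTT4-1. VAC14, a scaffold of lipid kinases, had 3 peaks over glycine tRNA genes in normal glucose and 1 intronic peak away from tRNA genes in low glucose. Because the lists name the gene around a tRNA gene and give no strand, RNA of the tRNA and RNA of the surrounding transcript cannot be told apart.

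Among snoRNAs, which guide chemical marks on ribosomal RNA, the sets in only 1 medium differed in their split by family. As a whole, the 51 snoRNA and Cajal body RNA genes divided much like all genes. They were 23.5% in both lists, 35.3% in low glucose only and 41.2% in normal glucose only. The shares over all genes were 23.7, 36.9 and 39.4%. Of 27 box H/ACA snoRNA genes (symbols beginning SNORA), which guide pseudouridylation, 6 were in both lists, 13 in low glucose only and 8 in normal glucose only. Of 21 box C/D snoRNA genes (SNORD), which guide methylation of the ribose, 5 were in both, 3 in low glucose only and 13 in normal glucose only. The outer sites met both ends of the snoRNA in 7 of 23 peaks in normal glucose only and in 0 of 19 in low glucose only. In low glucose only, 10 of 19 peaks met the 3′ end alone and 1 of 19 the 5′ end alone, against 5 and 6 of 23 in normal glucose only. SNORD83B and SNORD83A in introns of RPL3 had normal glucose peaks of 191 and 193 nt, and SNORD88A and SNORD88C in C19orf48 had 188 nt each. SNORD33 and SNORD32A, hosted by the ribosomal protein gene RPL13A, were in both lists.

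Other structural RNAs were met at more loci in normal glucose only than in low glucose only, though not all of them beyond the share over all genes. The 5S and 5.8S rRNA genes and their pseudogenes counted 43, of which 11 were shared, 5 were in low glucose only and 27 in normal glucose only. Inside the 45S units of the ribosomal DNA, from which the longer rRNAs are cut, 10 regions were shared (4 in 18S, 4 in 28S and 2 in 5.8S), 3 were in low glucose only and 20 in normal glucose only. The last 20 lay in 28S (12), 18S (6) and the 5′ external spacer (2). The 7SK RNA gene and its copies counted 3 shared, 1 in low glucose only and 7 in normal glucose only, and 7SL, the RNA of the signal recognition particle, counted 4, 1 and 4. RMRP and RPPH1, the RNAs of the RNase MRP and RNase P enzymes, had 2 peaks each and the vault RNA VTRNA1-1 had 1, all in normal glucose. Of spliceosomal RNA genes, 13 were in both lists, 5 in low glucose only and 10 in normal glucose only. Of all genes in the lists, 39.4% were in normal glucose only and 36.9% in low glucose only. The shares in normal glucose only were 62.8% for these rRNA genes, 63.6% for 7SK, 44.4% for 7SL and 35.7% for spliceosomal RNAs. In low glucose only they were 11.6, 9.09, 11.1 and 17.9%. RNU5A-1 with 2 peaks, RNU5B-1, RNU6-1 and RNU1-1 were met in normal glucose, and RNU6ATAC of the minor spliceosome in low glucose. Several of these RNAs have near-identical copies, and 96 of the 360 peaks in normal glucose only (26.7%) and 36 of the 349 in low glucose only (10.3%) lay over sequence of which more than 50% of the 30-mers recur in the genome. Without such peaks, the 7SK genes in normal glucose only numbered 4 in place of 7.

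At the level of genes, 845 were named in the lists, of which 200 (23.7%) were in both, 312 (36.9%) in low glucose only and 333 (39.4%) in normal glucose only. Of the 200 genes in both, 149 (74.5%, interval 67.9 to 80.4%) had peaks that overlapped. The share was 42 of 46 for small RNA and rRNA genes (91.3%, interval 79.2 to 97.6%), 41 of 48 for lncRNAs and 63 of 103 for protein coding genes (61.2%, interval 51.1 to 70.6%). Even among these 63, a common place lay over a tRNA gene in 16 and over another small RNA or rRNA gene in 18. In the other 29 no common place lay over either. A gene of the 16 or the 18 could also hold a common place elsewhere. Which single-list set was larger depended on the peaks used, since without single-site peaks that had a G before the middle 41.8% of genes were in low glucose only and 33.9% in normal glucose only. In the 482 protein coding genes, 103 were in both lists, 206 in low glucose only and 173 in normal glucose only.

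Regions in exons of protein coding genes, away from tRNA and small RNA genes, were shared in 15 cases. They lay in PABPC1 and PABPC4, which bind poly(A) tails, the ribosomal protein genes RPL28, RPL13, RPLP2, RPS2 and RPS18, FTL, the ferritin light chain, TMSB4X, which holds actin monomers, NFKBIA, the inhibitor of NF-kappa-B, the histone gene H3C10, SNX11, SARAF, PNRC1 and SERF2. At RPL28 the peak (chr19:55385880-55385980) was identical in the lists, with its middle 2 nt before an annotated transcript start. SNX11, a sorting nexin, had an identical peak in the 3'UTR (chr17:48121839-48121939). FTL held a wide peak in its 5'UTR in both, of 174 nt in low glucose and 192 nt in normal glucose, and normal glucose added 2 places in its coding sequence.

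In 51 genes both lists had peaks but at different places, and 40 of these were protein coding. The nearest peaks were a median of 490 nt apart, from 0 to 214095 nt, and 33 were within 1000 nt. Neither list was always closer to the 5′ end of the gene: among the 40 coding genes the peak nearest to it was of low glucose in 23 and of normal glucose in 17. EEF2, an elongation factor that drives translocation on the ribosome, had 5 peaks in low glucose, in coding exons 14, 13, 12, 4 and 2, and 4 in normal glucose, in coding exons 15, 12 and 11 and in an intron. The widest of them (chr19:3977405-3977650, 246 nt) was in low glucose. PABPC1 had 3 peaks in low glucose, all in exon 1, and 6 in normal glucose, 2 of them in exon 1 and the rest in exons 9, 11 and 12 and an intron. RACK1, a scaffold protein on the small subunit, had low glucose peaks in exons 1 and 3 and normal glucose peaks in exons 5 and 8 and over a snoRNA. TKT, which codes for transketolase, had peaks only 4 nt apart, with the middle in coding exon 1 in low glucose (chr3:53255869-53255969) and 2 nt before an annotated transcript start in normal glucose (chr3:53255974-53256074). GAPDH met its own transcript in both media, in coding exon 6 in low glucose (chr12:6537054-6537155) and in the 3'UTR in exon 9 in normal glucose (chr12:6538122-6538222), 966 nt apart. The latter place has many copies, since 66.7% of its 30-mers recur in the genome.

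**Figure D2:**
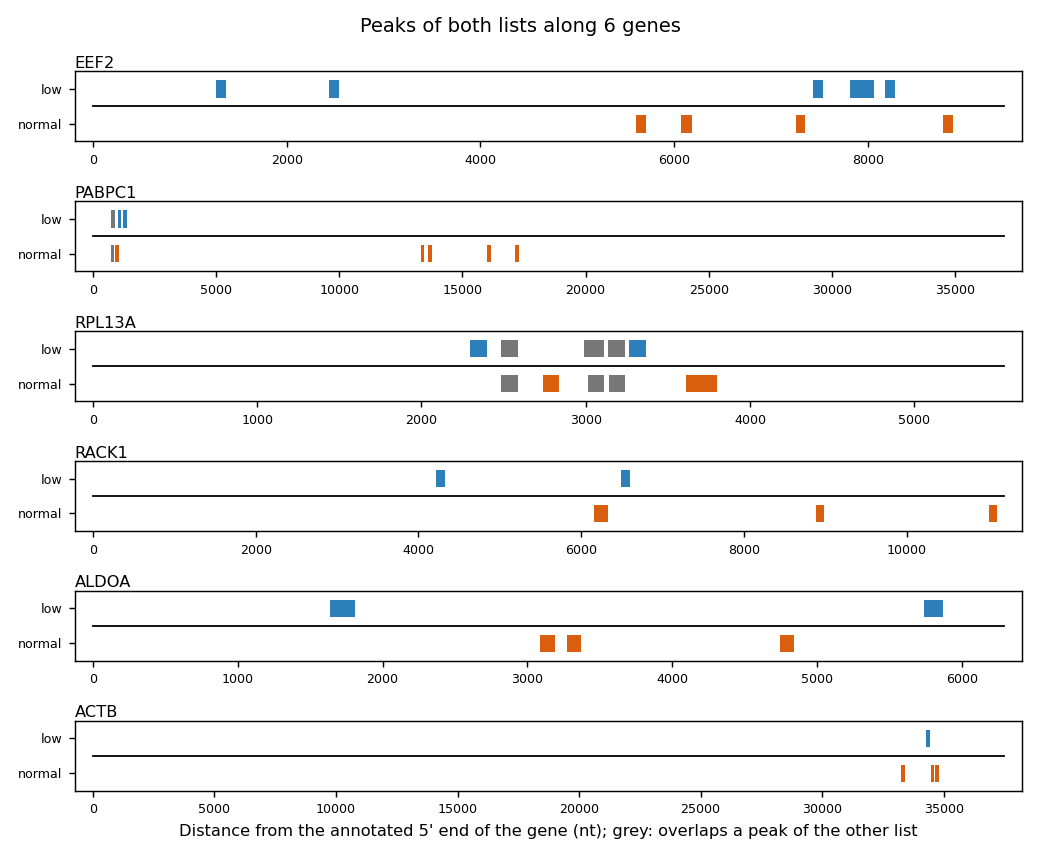
Positions of the low and normal glucose peaks along EEF2, PABPC1, RPL13A, RACK1, ALDOA and ACTB, as the distance (nt) from the 5′ end of the annotated gene. The 5 low glucose and 4 normal glucose peaks of EEF2 do not coincide, while RPL13A has peaks of both lists at the same snoRNA places.

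Within protein coding genes, the 5'UTR took a larger share of the peaks in low glucose only and coding sequence a larger share of those in normal glucose only, but the second of these turned without the sites next to a G. Of the peaks in low glucose only, 65 of 253 (25.7%, interval 20.4 to 31.5%) had their middle in a 5'UTR, 102 (40.3%, interval 34.2 to 46.6%) in coding sequence, 10 (3.95%) in a 3'UTR and 76 (30%, interval 24.5 to 36.1%) in an intron. Of those in normal glucose only, 31 of 199 (15.6%, interval 10.8 to 21.4%) lay in a 5'UTR, 103 (51.8%, interval 44.6 to 58.9%) in coding sequence, 10 (5.03%) in a 3'UTR and 55 (27.6%, interval 21.5 to 34.4%) in an intron. Without single-site peaks that had a G before the middle, the 5'UTR held 25.2% of 226 peaks in low glucose only and 21.5% of 107 in normal glucose only (intervals 19.7 to 31.4% and 14.1 to 30.5%), and coding sequence held 41.2% and 34.6% (intervals 34.7 to 47.9% and 25.6 to 44.4%). By exon number, exon 1 of the canonical transcript held 83 of 163 exonic peaks in low glucose only (50.9%, interval 43.0 to 58.8%) and 46 of 138 in normal glucose only (33.3%, interval 25.5 to 41.9%). Exons after the second held 48 (29.4%, interval 22.6 to 37.1%) and 77 (55.8%, interval 47.1 to 64.2%). The gap was also present in coding sequence alone, where later exons held 38 of 100 peaks (38%, interval 28.5 to 48.3%) in low glucose only and 66.3% (interval 56.2 to 75.4%) in normal glucose only. Without the same single-site peaks, later exons held 29.3% of 147 exonic peaks in low glucose only and 44.1% of 59 in normal glucose only (interval 31.2 to 57.6%), and those intervals overlapped.

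RPS12, a small subunit protein met in low glucose only, had 3 peaks, in the 5'UTR and in exons 3 and 4. VIM, the intermediate filament vimentin, had 3 within the start of the gene, in the 5'UTR (chr10:17229283-17229429) and in coding exon 2, all also named VIM-AS1. LAPTM5, a lysosomal membrane protein of blood cells, had 2 peaks, in coding exons 1 and 2, and GDF15, a stress-induced cytokine, had 2 in coding exon 2. LYN, a Src family kinase of myeloid cells, carried the widest low glucose peak, of 262 nt, in its 5'UTR. Of the genes met in normal glucose only, YBX1, a cold shock domain protein that binds messenger RNA, had 4 peaks, in coding exons 4, 5 and 7 and the 3'UTR in exon 8. RPS14 had 3, in coding exons 2 and 4 and in the 3'UTR, and PGK1, the glycolytic kinase, had 2, in exons 3 and 10.

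**Figure D3:**
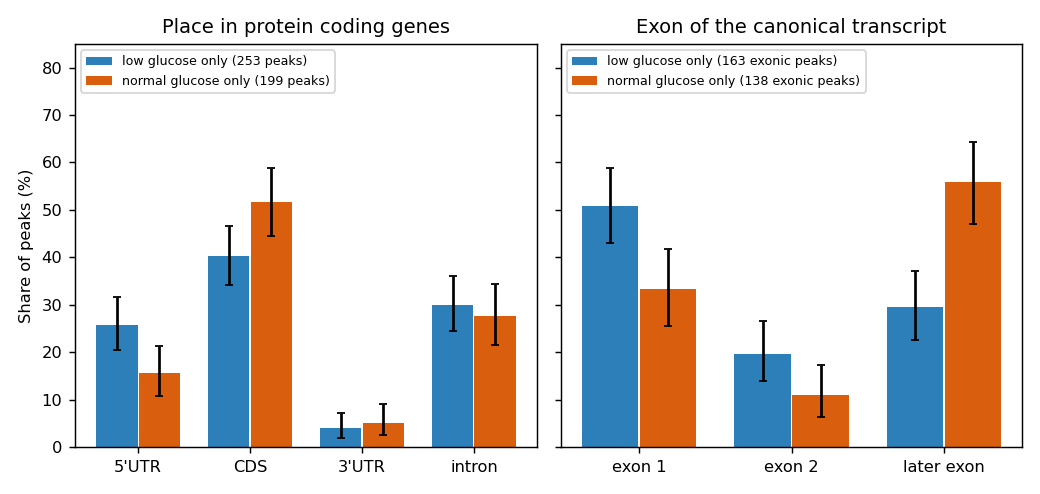
Share of peaks (%) of protein coding genes by place in the transcript and by exon number, for peaks in low glucose only and in normal glucose only, with exact 95% binomial intervals as error bars. Exon 1 holds 50.9% and 33.3% of the exonic peaks and later exons 29.4% and 55.8%.

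The sets also differed in what lay at the sites. Of the peaks in normal glucose only, 263 of 360 (73.1%, interval 68.2 to 77.6%) were single sites, against 175 of 349 (50.1%, interval 44.8 to 55.5%) in low glucose only. Peaks wider than 150 nt numbered 45 (12.5%) and 23 (6.59%). Middles within 50 nt of an annotated transcript start were about as common in each, at 72 of 360 (20%) and 78 of 349 (22.3%). Among single-site peaks on a known strand, the base before the middle was a G in 148 of 219 peaks in normal glucose only (67.6%, interval 60.9 to 73.7%) and in 40 of 155 in low glucose only (25.8%, interval 19.1 to 33.4%). At the other 100 places of these peaks, G made up 29.4% on average in normal glucose only and 30.7% in low glucose only. The G stood at that single place, since the base before it was G in 20.5% of the peaks in normal glucose only and the middle base itself in 22.8%. It was found on both strands, in 61.1% of plus strand peaks and 74.5% of minus strand peaks. In the shared peaks the share was 19 of 47 in normal glucose (40.4%) and 13 of 48 in low glucose (27.1%). RNase T1 cuts after G, and whether that cut has a part in these peaks was not tested.

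The gap between the sets was wide in coding sequence. There 66 of 82 peaks in normal glucose only (80.5%, interval 70.3 to 88.4%) had a G before the middle and 10 of 50 in low glucose only (20%, interval 10 to 33.7%). In the 5'UTR the shares were 9 of 24 (37.5%, interval 18.8 to 59.4%) and 9 of 28 (32.1%, interval 15.9 to 52.4%), whose intervals overlapped widely. In introns they were 13 of 29 (44.8%) and 9 of 37 (24.3%). Single-site pseudogene peaks in normal glucose only had a G in 17 of 18 cases. The coding sites of YBX1, RPS14, GPI, ALDOA and EEF2 spelled out for normal glucose show the G, and among the 8 spelled out for low glucose only a site of GDF15 does.

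The GC content also differed, with a median of 61.5% over the peaks in low glucose only, 54.5% over those in normal glucose only and 53.5% over the shared ones. The peaks in low glucose only also had the higher median of the unpaired sets in coding sequence (64.2 and 58.4%), in the 5'UTR (72.3 and 69.2%) and in introns (55.9 and 51.5%).

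**Figure D4:**
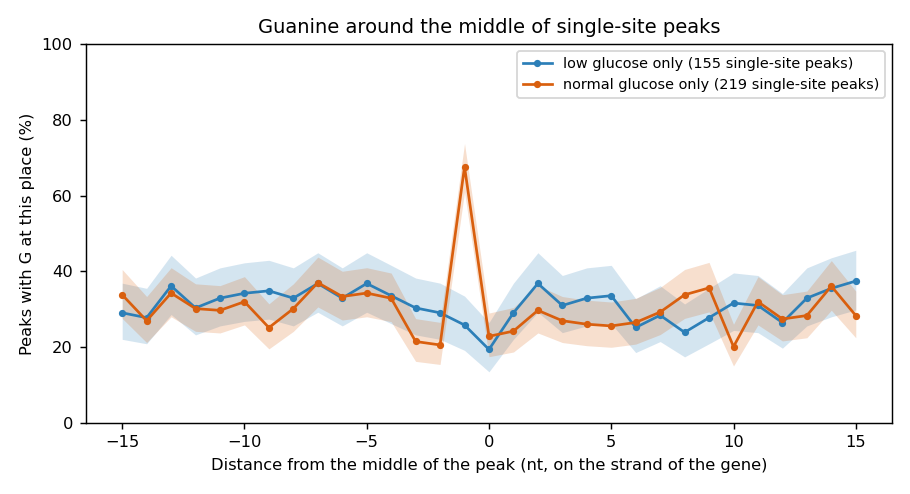
Share of single-site peaks (%) with a G at each position around the middle, for peaks in low glucose only and in normal glucose only, with exact 95% binomial intervals. The peaks in normal glucose only reach 67.6% just before the middle, against 25.8% in low glucose only and about 30% elsewhere.

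Larger gene groups were read against the shares over all genes, of which 36.9% were in low glucose only and 39.4% in normal glucose only. Glycolytic enzymes had more peaks in normal glucose, in a group of genes too few to be set against those shares. Of 6 with a peak, 2 were in both lists, at different places, 4 were in normal glucose only and 0 in low glucose only, and the group held 3 low glucose peaks against 11 normal glucose peaks. ALDOA, the aldolase, had a low glucose peak in its 5'UTR (chr16:30065801-30065974) and in exon 13, and normal glucose peaks in exons 7, 8 and 10. PKM, the pyruvate kinase that yields the last ATP of the pathway, had normal glucose peaks in exons 8 and 9 (chr15:72206700-72206800 and chr15:72202411-72202582). GPI, the glucose-6-phosphate isomerase, had peaks in exons 15 and 18, PGK1 in exons 3 and 10, and LDHA, which turns pyruvate into lactate, in exon 3. Without single-site peaks with a G before the middle, 3 of the 4 genes in normal glucose only kept a peak. PGLS, the lactonase of the pentose phosphate pathway, was in normal glucose only.

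Ribosomal proteins were the largest coding group, and the lists split it evenly while all peaks were counted. Of 30 large subunit genes, 11 were in both lists, 9 in low glucose only and 10 in normal glucose only, and of 20 small subunit genes 10, 5 and 5. Without single-site peaks that had a G before the middle, the counts in low and normal glucose only were 10 and 4 for the large subunit and 9 and 2 for the small subunit. Of the genes in both, 5 of the 11 and 4 of the 10 shared a place, against 63 of 103 protein coding genes (61.2%). Of the 14 shared ribosomal protein peaks in each list, 9 lay in a small RNA. RPL13A, of the large subunit, had 5 peaks in each list. The place over SNORD32A (chr19:49489994-49490095) was identical, the places over SNORD33 overlapped, and the coding peaks were in exons 2 and 5 in low glucose and exon 3 in normal glucose. Of the 55 peaks of the whole ribosomal protein set in low glucose only, 14 lay in a 5'UTR, 34 in coding sequence and 6 in a small RNA, and of the 48 in normal glucose only, 4 lay in a 5'UTR, 33 in coding sequence, 2 in a 3'UTR and 9 in a small RNA. A G came before the middle in 27 of 34 single-site peaks in normal glucose only and in 5 of 25 in low glucose only. Translation factors had 4 genes in both lists, 2 in low glucose only (EIF1 and EIF3J) and 2 in normal glucose only (EIF4A2 and EIF4G2). Of the 4 in both, 2 had an overlapping peak, PABPC1 and PABPC4. All EIF4A1 peaks lay over snoRNA genes, among them SNORA48 and SNORD10 in normal glucose. They need not be contact with its messenger RNA.

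**Figure D5:**
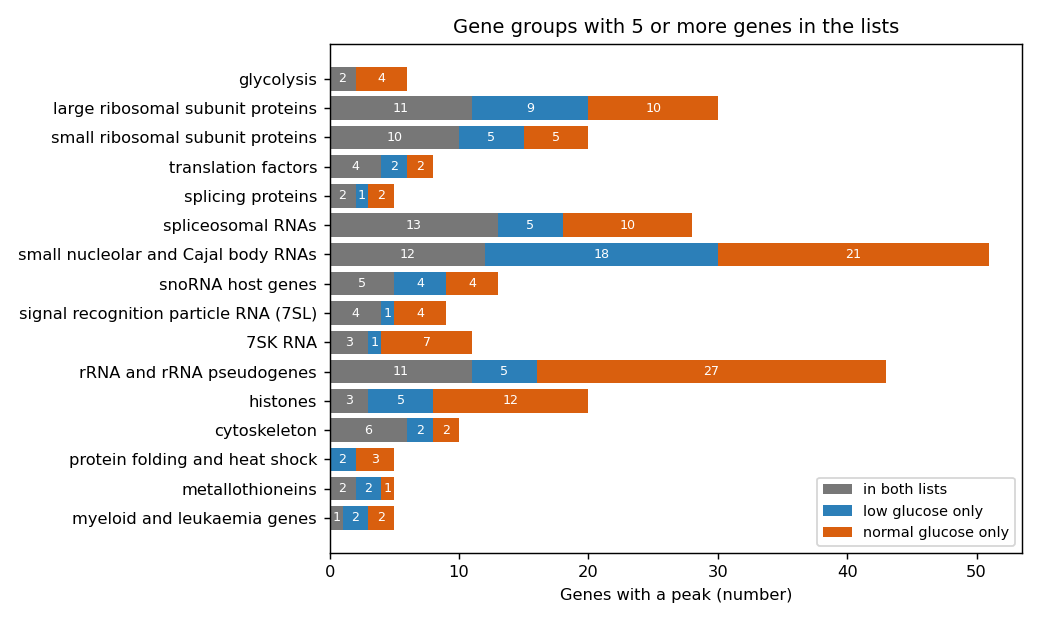
Number of genes of each group in both lists, in low glucose only and in normal glucose only. Glycolysis has 2, 0 and 4 genes, histones 3, 5 and 12, and the large ribosomal subunit 11, 9 and 10.

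Histone genes had more members in normal glucose only than in low glucose only. Of 20 histone genes, 3 were in both lists, 5 in low glucose only and 12 in normal glucose only, and the last were mostly core histones such as H2BC15, H2BC10, H2BC17, H2AC16 and H2AJ, with a G before the middle of the coding peaks of these 5. The 5 in low glucose only were the linker histone genes H1-2 and H1-5, the replacement histone gene H3-3A and the core histone genes H3C11 and H3C4. Another linker histone gene, H1-4, was in both lists. Without peaks that had a G before the middle, the count in normal glucose only was 3 in place of 12, while the count in low glucose only was 5 as before. Chaperones divided by gene: HSPD1 of mitochondria and CALR of the endoplasmic reticulum were in low glucose only, and the cytosolic HSP90AA1, HSP90AB1 and HSPA8 in normal glucose only. HSPA8 had 3 peaks there, 1 in coding sequence and 2 over snoRNAs.

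Cytoskeletal genes were in both lists in 6 of 10 cases, but only TMSB4X had an overlapping peak. ACTB, beta-actin, had a low glucose peak in coding exon 2 and 3 normal glucose peaks, in exon 3 and the 5'UTR. VIM and FLNA, a filamin that crosslinks actin, were in low glucose only, and TMSB10 and CFL1 in normal glucose only. The nuclear-encoded respiratory chain genes ATP5F1D, NDUFS7 and CYC1 were all in low glucose only. Like the 6 glycolytic genes they are too few to be set against the shares over all genes. The peak named NDUFS7 (chr19:1383589-1383689) lay over the asparagine tRNA gene TRN-GTT2-6, so it need not be contact with the NDUFS7 messenger RNA. Metallothioneins, which bind zinc and copper, had MT2A and MT1H in both, MT1E and MT1X in low glucose only and MT1F in normal glucose only. Of the nuclear lncRNAs, SOX2-OT and MALAT1 were in both and NEAT1, the scaffold of paraspeckles, had 2 peaks in low glucose only. A shared SOX2-OT peak, of 224 nt in low glucose, was also named RNA5SP150, a 5S rRNA pseudogene. It need not be contact with the lncRNA. Among leukaemia genes, MYC and CEBPA were in low glucose only, MCL1 and PRTN3 in normal glucose only, and FCGR2A in both. The FCGR2A peak lay over the glycine tRNA gene TRG-GCC2-1 in both lists, so it need not be contact with the FCGR2A messenger RNA. Of transcripts with AU-rich elements, NFKBIA was in both lists with overlapping peaks, MYC had its 1 peak in low glucose and ZFP36L1 its 1 peak in normal glucose, and TNF had no peak in either list.

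The pseudogenes named in the lists were mostly in normal glucose. Of 49 pseudogenes, 0 were in both lists (upper limit of the interval 7.25%), 5 in low glucose only and 44 in normal glucose only. Of 25 whose name is that of a parent gene, 23 were in normal glucose only and 2, TMSB4XP8 and GTF2IP4, in low glucose only. Of the 23, 10 were copies of ribosomal protein genes, such as RPL24P4, RPS2P17 and RPSAP53, 4 were copies of GAPDH (GAPDHP21, GAPDHP61, GAPDHP63 and GAPDHP65), and others were PKMP1, ALDOAP2, ACTBP2, EEF1A1P10 and NPM1P43. A total of 15 of the 23 had a parent gene in the lists. Reads of such a copy can be placed on the parent or on the copy, and which of them the crosslinked RNA came from cannot be told from positions. By class, pseudogene peaks made up 24 of 360 in normal glucose only (6.67%) and 2 of 349 in low glucose only (0.573%). Without single-site peaks that had a G before the middle, the share in normal glucose only was 3.26%. Protein coding genes took 201 of 360 (55.8%, interval 50.5 to 61.0%) and 262 of 349 (75.1%, interval 70.2 to 79.5%).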

How the data were processed

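RNA crosslinked to GAPDH was recovered from MOLM-13 cells with an anti-GAPDH antibody and trimmed with RNase T1. Per the study's methods, PureCLIP called the sites, close ones were joined and lone ones extended on each side. The submitters' processing notes name cutadapt, STAR and hg38, and versions are not given in the sources used here. The deposited lists, 1 per condition with both samples joined by the authors, hold positions (chromosome, start and end, read as 1-based), Ensembl gene identifiers and symbols, with no counts, so depth is unknown. No value column was left without a sample (0 columns).

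Genes were set against GENCODE release 44, in which 619 of 623 low glucose and 701 of 704 normal glucose pairs of peak and gene were found, and tRNA genes (443 nuclear) against the RefSeq table of GRCh38.p14. A peak got 1 class from its genes, with the small structural RNAs ahead of protein coding genes and these ahead of lncRNAs and pseudogenes. Its middle got 1 place over all transcripts, coding sequence taking precedence, then the 5'UTR, the 3'UTR and introns. The protein groups kept only protein coding genes. Shares carry exact 95% Clopper-Pearson intervals, and no test was run because each condition is 1 list. Python 3.11.15, pandas 2.3.3, numpy 2.4.6, scipy 1.17.1, pysam 0.24.0 and samtools 1.23.1 were used. Overlaps and intervals were tested on simulated lists.

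Named genes followed a rule: the study's targets, genes with 3 or more peaks in a list, genes with most shared or single-list peaks, up to 5 leading members of each gene group, the 3 widest peaks of each list and genes with shared exonic places. Most pseudogenes, SNORD32A, SNORD83A, SNORD83B, SNORD88A, SNORD88C and the tRNA genes fell outside it and were named after their values were seen. Printed sequences are places of named genes. The members and lists were chosen with earlier results of these data known. Alternatives were other overlap rules, orders of class and place, gene sets and lists without tRNA genes, small RNA genes, recurrent sequence or sites next to G.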

Additional observations from a re-analysis of the deposited data

How the results depend on the processing

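The deposited lists give no depth, counts or replicate spread, which limits every comparison to places listed or not listed. No paired analysis was possible because the authors joined the replicates of each condition into 1 list, and leaving out a replicate was not possible for the same reason. Of 130 values recomputed under alternatives, 100 stayed close to the main value and 30 moved further. A share was close if it lay inside the interval of the main value. A count of regions, which has no interval, was close if it changed by at most 1.5 times. The order of the low and normal glucose only sets turned under 3 alternatives for the share of genes (36.9 and 39.4% with all peaks) and under 1 for coding sequence (40.3 and 51.8%), for introns (30 and 27.6%) and for nearness to a transcript start (22.3 and 20%), and that of the nearly equal shares of shared peaks (27.9 and 27.3%) under 5. The share of peaks shared in low and normal glucose was 15.9 and 15.6% with identical ends required, 20.5 and 20% with middles within 10 nt, 21.9 and 20.8% without tRNA genes, and 17.5 and 12.5% with single-site peaks alone, and for low glucose 21.9% without small RNA and rRNA genes. Genes in low and normal glucose only were 46.0 and 32.3% with 1-gene peaks and 42.7 and 35.9% with protein coding genes. Shared genes with a common place were 61.2% for protein coding genes and 81.5% with a gap of 50 nt allowed. With protein coding put before small RNA, coding peaks were 81.9% in low glucose only and 69.2% in normal glucose only, rRNA 3.33% and other small RNA 4.17% in normal glucose only. With the 5'UTR put before coding sequence, coding sequence was 32.4% in low glucose only. Leaving out sites next to G, and coding peaks alone for the distance to a transcript start, were chosen after seeing the data. Without single-site peaks with a G before the middle, 34.5% of normal glucose peaks were shared, genes in low and normal glucose only were 41.8 and 33.9%, pseudogenes were 3.26% of the peaks in normal glucose only, and its coding gene peaks were 21.5% in the 5'UTR, 34.6% in coding sequence (41.2% in low glucose only) and 39.3% in introns (29.6%), with 44.1% of exonic peaks in later exons. Peaks in normal glucose only within 50 nt of a transcript start were 24.6% without recurrent sequence (23.4% in low glucose only) and 15.4% in protein coding genes. Of 120 group counts, 36 moved by more than 1.5 times. Without sites next to G, large ribosomal subunit genes in normal glucose only were 4 in place of 10. Without recurrent sequence, 7SK genes in normal glucose only were 4 in place of 7. With 1-gene peaks, snoRNA genes in low and normal glucose only were 1 and 1 in place of 18 and 21. The causes were not tested.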
